A study of Mus musculus with 6 samples.

Results

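The genes described here encode the subunits of the mitochondrial respiratory chain and ATP synthase. They were taken as protein-coding genes by symbol. For complex I this was Nduf, then a, b, c, s or v, then a digit, which leaves out Ndufab1 and the Ndufaf assembly factors. Sdha to Sdhd stood for complex II, the stem Uqcr and Cyc1 for complex III, and the stems Cox4 to Cox8 for complex IV. The stem Atp5 stood for complex V and mt- for the mitochondrial chromosome. Of 20533 genes in the table, 96 qualified: 77 common nuclear subunits, 6 nuclear paralogs of restricted expression (Cox4i2, Cox6a2, Cox6b2, Cox7a1, Cox8b and Ndufa4l2) and 13 mitochondrially encoded genes. Cox7b2 and Cox8c met the rule but had no row. RNA of the distal colon was extracted with Trizol from male mice of strain C57BL/6, wild type and 7 weeks old, and gave 3 groups of 2 libraries each. For 7 days the animals had water, 2% DSS (dextran sulphate sodium, a standard way to cause colitis by injury to the epithelium), or 2% DSS together with Montmorillonite powder, an adsorbent clay; the last group is called DSS plus montmorillonite. The labels name no transgene or deletion in any group. Nor is it stated that replicates are different animals, so the p-values speak only of how far these libraries differ.

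The respiratory chain passes electrons from NADH (complex I) and succinate (complex II) through coenzyme Q, complex III and cytochrome c to oxygen at complex IV, and the proton gradient built on the way drives ATP synthesis by complex V. Its subunits come from both genomes: most are nuclear genes translated in the cytosol and imported, whereas a few hydrophobic core subunits are transcribed and translated inside the organelle, and complex II has nuclear subunits only. Colonocytes are known for oxidising butyrate from the gut lumen through this chain.

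All levels are normalised read counts, which were reads divided by a single factor per library, and they are given with replicate 1 before replicate 2. Total reads were 8936826 and 3741494 in water, 21481594 and 15212981 under DSS, and 6395768 and 4494666 with montmorillonite added. The epithelial markers of the labelled tissue were abundant in every library, with summed values of 10 genes between 45680 and 165516. The pair with montmorillonite differed strongly from each other, and results on that group are therefore also given per library or without each of them. Markers of skeletal muscle, which is not colon epithelium, summed to 3285 in DSS replicate 2 and 4221 in DSS plus montmorillonite replicate 1, against 121 to 681 in the other 4 libraries. Stratified squamous markers summed to 32728 in DSS replicate 2 and 6604 in DSS plus montmorillonite replicate 2, against 104 to 475 elsewhere.

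Nuclear subunit transcripts of all 5 complexes were lower in DSS than in water. Their summed value fell from 141549 and 134265 in water to 72455 and 63552 under DSS, with 129903 and 73688 in the montmorillonite pair. Of the 77 common nuclear subunits, 56 fell in DSS against water and 0 rose, by limma on log2(value + 1) with a Benjamini-Hochberg adjusted p below 0.05 over 20307 genes. The same test called 7.18% of all genes lower and 7.9% higher. In 76 of the 77 genes both DSS libraries lay below both water libraries, and in the remaining gene, Ndufa4, both lay above, where 28.5% of all genes had non-overlapping libraries with DSS lower and 33.9% with DSS higher. The median log2 difference over the 77 genes was -0.96, a level of 0.512 times that in water, beside 0.10 over all genes tested. When the third group was added to the fit, 0 of the 77 genes were called, although 62 had an unadjusted p below 0.05. The smallest adjusted p over all genes was then 0.0576. That such a fit called no gene was known when the fit of the 4 libraries was chosen. Scaled by library size only, which moved the median of all genes from 0.10 to 0.23, 35 fell and 0 rose, and the median of the 77 was -0.72. In fits that left out any 1 of the 4 libraries, 0 were called and 45 to 72 had an unadjusted p below 0.05. Likewise, of the genes named as called in DSS against water here and in the following, pathway genes included, 0 were called in the fit of all 6 libraries or in any fit without 1 library. In these bulk samples, fewer cells rich in mitochondria and less subunit RNA per cell cannot be told apart.

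**Figure D1:**
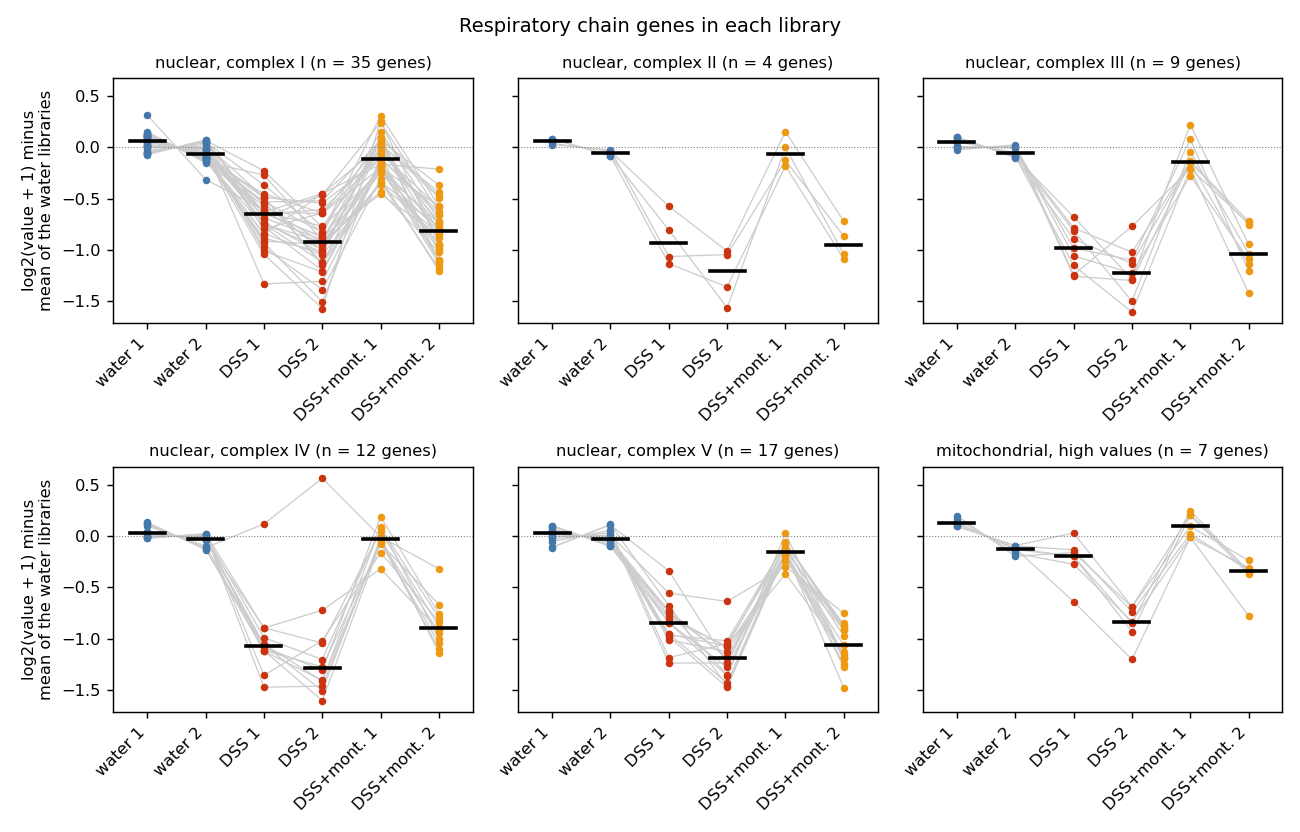
Each grey line is a gene and each point its log2(value + 1) in a library, minus the gene's mean over the water libraries; black bars are medians over genes. The DSS libraries and replicate 2 of DSS plus montmorillonite sit low in each nuclear panel, replicate 1 of DSS plus montmorillonite sits near water, and the gene above 0 in both DSS libraries of the complex IV panel is Ndufa4.

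Complex I, the entry point for NADH, had the most members and the smallest median change of the nuclear complexes: 18 of its 35 nuclear subunits fell, with a median log2 difference of -0.78 and a range of -1.32 to -0.50. Ndufb9, an accessory subunit of the membrane arm, read 1506 and 1476 in water, 592 and 602 under DSS, and 1315 and 772 with montmorillonite added. The DSS libraries were far below water and almost equal to each other, a log2 difference of -1.32 (SE 0.15, adjusted p = 0.00875, limma). Ndufa6, an accessory subunit of the LYR family, read 1526 and 1380.5 in water, 703 and 488 under DSS, and 1730.3 and 754 with montmorillonite added, with a log2 difference of -1.31 between DSS and water (SE 0.22, adjusted p = 0.0187). Replicate 1 of DSS plus montmorillonite was the highest of the 6 libraries for this gene. Ndufv2, a core flavoprotein subunit that holds an iron-sulphur cluster, read 2050.2 and 1853 in water, 1020.4 and 685 under DSS, and 1831 and 901 with montmorillonite added. Both DSS libraries lay below both water libraries, a log2 difference of -1.22 (SE 0.23, adjusted p = 0.0239).

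The smallest differences in complex I belonged to Ndufs3 and Ndufb3. Ndufs3, a core subunit of the peripheral arm, read 682 and 712 in water, 496 and 477 under DSS, and 647 and 442 with montmorillonite added. Ndufb3, an accessory membrane arm subunit, read 311 and 341 in water, 278 and 189 under DSS, and 278 and 194 with montmorillonite added. The DSS libraries lay below water in both genes without passing the test (log2 difference -0.52, SE 0.16, adjusted p = 0.0884 for Ndufs3, and -0.50, SE 0.25, adjusted p = 0.225 for Ndufb3). Among the 7 core subunits, which carry out electron transfer and are conserved from bacteria, 3 fell (median -0.63), and among the 28 accessory subunits 15 fell (median -0.79); this difference between the classes was not tested.

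Every subunit of complex II, succinate dehydrogenase, which belongs to the citric acid cycle as well as the chain, fell in DSS. Sdha, the flavoprotein that oxidises succinate, read 3245 and 3077 in water, 2122 and 1565 under DSS, and 3511 and 1915 with montmorillonite added. Sdhb, the iron-sulphur subunit, read 1724 and 1537 in water, 741 and 633 under DSS, and 1434 and 765 with montmorillonite added. In both genes the DSS libraries and replicate 2 of DSS plus montmorillonite were low and the other 3 libraries high. The membrane anchor Sdhc read 1533 and 1478 in water, 719 and 728 under DSS, and 1378 and 825 with montmorillonite added. The other anchor, Sdhd, read 2755 and 2456 in water, 1487 and 878 under DSS, and 2598 and 1263 with montmorillonite added. Water and DSS did not overlap in any of the 4 genes, whose log2 differences were -0.79 for Sdha (SE 0.20, adjusted p = 0.0488), -1.25 for Sdhb (SE 0.17, adjusted p = 0.0119), -1.06 for Sdhc (SE 0.15, adjusted p = 0.0134) and -1.19 for Sdhd (SE 0.27, adjusted p = 0.0387). Sdha was not called by edgeR, with a pseudocount of 0.5 or with no filter on low values. Neither Sdha nor Sdhd was called with scaling by library size only.

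In complex III, which hands electrons from coenzyme Q to cytochrome c, all 9 nuclear subunits fell, with log2 differences of -1.38 to -0.90 (median -1.04). Uqcr10, a small membrane subunit, read 1699 and 1501 in water, 718 and 523 under DSS, and 1382 and 596 with montmorillonite added. Cyc1, which carries the haem of cytochrome c1, read 2510.0 and 2479 in water, 1043 and 1013 under DSS, and 2251 and 1130.1 with montmorillonite added. Both genes separated water from DSS widely, with log2 differences of -1.38 (SE 0.21, adjusted p = 0.0147) and -1.28 (SE 0.15, adjusted p = 0.00887). The core protein Uqcrc2 read 3091 and 2795 in water, 1672 and 1037 under DSS, and 2854 and 1432 with montmorillonite added, a log2 difference of -1.16 between DSS and water (SE 0.25, adjusted p = 0.0346). The smallest changes were those of the small subunits Uqcrb (1818 and 1592 in water, 1063 and 697 under DSS, 1981 and 883 with montmorillonite added) and Uqcrq (1589.5 and 1476 in water, 888 and 753 under DSS, 1394 and 928 with montmorillonite added). Even there the DSS libraries stayed below water, by -0.98 (SE 0.24, adjusted p = 0.0459) and -0.90 (SE 0.17, adjusted p = 0.0239) on the log2 scale. Uqcrb was not called by edgeR or with a pseudocount of 0.5, nor were Uqcrb and Uqcrc2 with scaling by library size only.

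Complex IV, cytochrome c oxidase, showed the largest median difference, -1.20, and 11 of its 12 common nuclear subunits fell. Cox6a1 (chr5:115345642-115348981, GRCm38), the common form of a regulatory subunit, had the largest change among the 77 genes: it read 5442 and 5542 in water, 1975 and 1991 under DSS, and 5310.2 and 2856 with montmorillonite added. Replicates agreed closely in water and in DSS, and the level in DSS was 0.361 times that in water (log2 difference -1.47, SE 0.15, adjusted p = 0.0070). Cox7b, a small subunit needed for assembly of the enzyme, read 2192 and 1915 in water, 943 and 673 under DSS, and 1958 and 992 with montmorillonite added. Cox7a2, the common form of its subunit, read 2085 and 1733 in water, 909.9 and 667 under DSS, and 1879.9 and 863 with montmorillonite added. In both, water and DSS were clearly apart, at -1.36 (SE 0.21, adjusted p = 0.0159) and -1.29 (SE 0.21, adjusted p = 0.0179). Cox7a2l has been described as joining complexes III and IV into supercomplexes, and its activity in this mouse strain was not examined here. It changed less: 1546 and 1596 in water, 843 and 951 under DSS, and 1259 and 832 with montmorillonite added. Its DSS libraries were still below water (-0.81, SE 0.16, adjusted p = 0.0269, not called with scaling by library size only), and both DSS plus montmorillonite libraries were below water too.

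The exception in complex IV was Ndufa4 (chr6:11900292-11907497, GRCm38), named for complex I and later assigned to complex IV. It read 783 and 669 in water, 785 and 1069 under DSS, and 719 and 579.6 with montmorillonite added. Both DSS libraries were the highest of the 6, but replicate 1 exceeded the nearest water library only slightly, and the difference did not pass the test (log2 difference 0.34, SE 0.21, adjusted p = 0.325).

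Of the 17 nuclear genes counted under complex V, the ATP synthase, 14 fell, with a median log2 difference of -1.04. Atp5d, a subunit of the central stalk, read 2909 and 3038 in water, 1259 and 1260.3 under DSS, and 2821 and 1609.8 with montmorillonite added. The central stalk subunit Atp5c1 read 3731 and 3532 in water, 1838 and 1306 under DSS, and 3226 and 1581 with montmorillonite added. Atp5o, the peripheral stalk subunit that confers oligomycin sensitivity, read 2483 and 2342 in water, 1244 and 893 under DSS, and 2188 and 992 with montmorillonite added. In all 3 the DSS libraries were far below water, with log2 differences of -1.24 (SE 0.15, adjusted p = 0.00915), -1.23 (SE 0.21, adjusted p = 0.0188) and -1.19 (SE 0.21, adjusted p = 0.0194). At the other end were Atp5s and Atp5g2. Atp5s, whose product is called coupling factor B, has the symbol Dmac2l in RefSeq and was counted here by its symbol stem only. It read 102 and 118 in water, 86.4 and 46 under DSS, and 99.2 and 58.1 with montmorillonite added. Atp5g2, which with Atp5g1 and Atp5g3 encodes the same mature subunit c of the rotor ring, read 936 and 946 in water, 639 and 604 under DSS, and 765 and 558 with montmorillonite added. Neither passed the test (adjusted p = 0.218 for Atp5s and 0.0579 for Atp5g2), though DSS lay below water in both. The inhibitor of ATP hydrolysis by this complex, Atpif1 (Atp5if1 in newer symbols, and outside the naming rule), read 1297 and 1167 in water, 725 and 554 under DSS, and 1069 and 442 with montmorillonite added. It fell with the enzyme it binds, by 0.96 on the log2 scale (SE 0.20, adjusted p = 0.0295, not called with scaling by library size only).

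**Figure D2:**
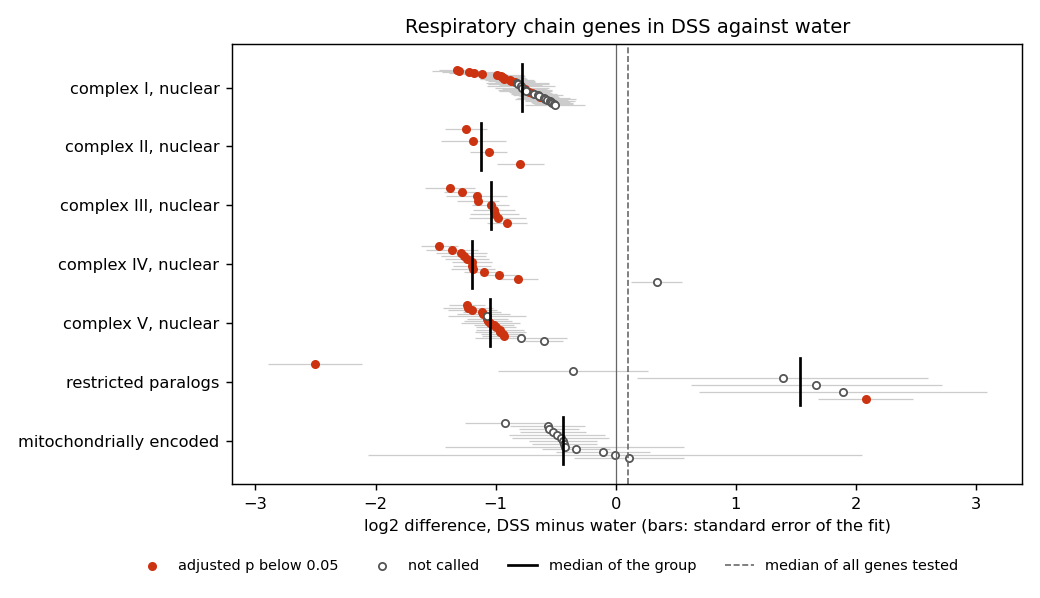
Log2 difference of DSS minus water for all 96 genes, by complex, with bars for the standard error of the fit, filled points for genes with an adjusted p below 0.05 and black lines for group medians. The nuclear complexes lie left of the dashed median of all genes tested (0.10), apart from Ndufa4 at 0.34, and the mitochondrially encoded genes have open points only.

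The paralogs of restricted expression did not move as a block: 1 of 6 fell and 1 rose. Cox7a1, the form of Cox7a2 typical of heart and skeletal muscle, read 172 and 159 in water, 38.9 and 20.6 under DSS, and 229 and 41.8 with montmorillonite added. It was low in DSS and in replicate 2 of DSS plus montmorillonite, and fell to 0.176 times the water level (log2 difference -2.50, SE 0.39, adjusted p = 0.0159). Smooth muscle markers, whose median log2 level lay at -0.37 and 0.37 in water, -1.23 and -0.63 under DSS, and 0.55 and -1.26 with montmorillonite added against the water mean, were likewise below both water libraries in DSS and in replicate 2 of DSS plus montmorillonite and above them in its replicate 1; their part in the level of Cox7a1 was not tested. Skeletal muscle markers summed to 3285 in DSS replicate 2, where Cox7a1 was lowest. They summed to 4221 in DSS plus montmorillonite replicate 1, where Cox7a1 was highest, and their part was not tested either. Per kilobase of transcript, Cox7a1 stood at 13.8% and 15.4% of Cox7a2 in water, 7.16% and 5.18% under DSS, and 20.4% and 8.12% with montmorillonite added.

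Cox6b2, the testis form of Cox6b1, was the only gene of the 96 called higher in DSS by limma without a replicate block. It read 24 and 20.5 in water, 77.1 and 122 under DSS, and 8.63 and 89 with montmorillonite added. The DSS libraries and replicate 2 of DSS plus montmorillonite were high and the other 3 libraries low (log2 difference of DSS against water 2.08, SE 0.40, adjusted p = 0.0249). Its common paralog Cox6b1 read 2561 and 2461 in water, 1207 and 941 under DSS, and 2675 and 1250.0 with montmorillonite added, so that Cox6b2 per kilobase was 0.99% and 0.879% of Cox6b1 in water and 6.74% and 13.7% in DSS. Ndufa4l2, a paralog of Ndufa4 known to be induced by hypoxia, read 7.68 and 22.7 in water, 15.4 and 126 under DSS, and 21.6 and 54.5 with montmorillonite added. Replicate 2 of DSS and, less far, replicate 2 of DSS plus montmorillonite stood above both water libraries. Replicate 1 of each of these groups lay within the water range. The test of DSS against water was not passed (adjusted p = 0.325, limma without a replicate block).

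The other 3 paralogs were near the limit of detection. Cox4i2, the lung and hypoxia form of Cox4i1, read 18.2 and 20.5 in water, 8.71 and 24.9 under DSS, and 21.6 and 3.63 with montmorillonite added. The muscle forms Cox6a2 (6.72 and 0 in water, 4.02 and 20.1 under DSS, 24.5 and 0 with montmorillonite added) and Cox8b (7.68 and 0, 3.02 and 13.9, and 10.1 and 0 in the same order) had 0 reads in water replicate 2 and in DSS plus montmorillonite replicate 2, where 0 reads allow a value of up to 6.82 and 5.45 (3 reads, counting error only). Cox6a2 was highest in the 2 libraries with high skeletal muscle markers; the part of such RNA in its level was not tested. Their common partners Cox4i1 (4548 and 4676 in water, 1799 and 2273 under DSS, 4124 and 2585 with montmorillonite added) and Cox8a (4195 and 3979.9, 1925 and 1652, and 4659 and 2413) fell in DSS, by 1.19 (adjusted p = 0.0147) and 1.20 (adjusted p = 0.0118) on the log2 scale.

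The balance between the nuclear parts of the complexes also differed between the libraries. The summed value of complex I was 1.60 and 1.58 times that of complex III in water, 1.91 and 1.91 times under DSS, and 1.59 and 1.83 times with montmorillonite added. Against complex IV it was 0.914 and 0.888 in water, 1.19 and 1.09 under DSS, and 0.862 and 0.979 with montmorillonite added. Both ratios were higher in each DSS library than in each water library, but with 2 libraries against 2 the two-sided exact permutation test gave p = 0.333, the smallest it can give, so neither passed. Per kilobase of transcript, the median member of complex IV was the most abundant in all groups (2979 in water, 1535 in DSS), followed by complex V (2088 and 1063), complex III (1641 and 757), complex II (1259 and 619) and complex I (739 and 421). Across the 77 genes, more abundant members fell more: the log2 level per kilobase in DSS plus montmorillonite, a group that did not enter the difference, had a Pearson r of -0.457 and a Spearman rho of -0.604 with the log2 difference of DSS against water. With the level in replicate 1 alone they were -0.495 and -0.640, and in replicate 2 alone -0.389 and -0.539. This is a relation across genes of the same libraries, which are not independent replicates.

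Of the 13 mitochondrially encoded genes, 0 were called in DSS against water by limma or edgeR; 1 had an unadjusted p below 0.05 with each, and DESeq2 called 1, mt-Co1, lower. Their median log2 difference was -0.44, and in 6 of the 13 both DSS libraries lay below both water libraries, beside 28.5% of all genes. mt-Co1, the catalytic subunit of complex IV and the most abundant gene of the set, read 209710 and 177598 in water, 123826 and 83795 under DSS, and 191319 and 112493 with montmorillonite added. Water and DSS did not overlap and the level in DSS was 0.528 times that in water (log2 difference -0.92, SE 0.33, adjusted p = 0.120, limma). Cytochrome b, mt-Cytb, the mitochondrial subunit of complex III, read 55466 and 46201 in water, 44103 and 26502 under DSS, and 58202 and 39203 with montmorillonite added. Replicate 2 of DSS was much the lowest library here, and replicate 1 was just below water (-0.57, SE 0.31, adjusted p = 0.271).

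DSS replicate 2 was the lowest library in each of the complex I subunits described next. mt-Nd1, at the junction of the membrane and peripheral arms, read 45294 and 39646 in water, 38586 and 25368 under DSS, and 42892 and 33593 with montmorillonite added. mt-Nd4, one of the proton-pumping subunits, read 27803 and 23399 in water, 22246 and 14168 under DSS, and 30268 and 20044 with montmorillonite added. In both, DSS replicate 1 was just below the lower water library. The pumping subunit mt-Nd5 read 25338 and 19249 in water, 19753 and 13674 under DSS, and 23548 and 18718 with montmorillonite added. The pumping subunit mt-Nd2 read 19542 and 17182 in water, 18702 and 11376 under DSS, and 21175 and 14493 with montmorillonite added. In these genes replicate 1 of DSS lay within the water range. mt-Nd6, the only protein-coding gene on the other strand, read 11856 and 9381 in water, 8712 and 5912 under DSS, and 10449 and 8510.4 with montmorillonite added. It overlaps mt-Nd5 by position (chrM:13552-14070 and chrM:11742-13565), and since the strand setting of the counting is not given in the sources used here, its level is uncertain. None of these 5 genes passed the test (log2 differences -0.56 to -0.33, adjusted p = 0.191 to 0.467).

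The remaining 6 mitochondrial genes had values of at most 178, where every gene described so far on that chromosome had at least 5912. mt-Co2, the copper-binding subunit of complex IV, read 62.4 and 61.4 in water, 58 and 33.1 under DSS, and 173 and 47.2 with montmorillonite added. mt-Co3, the third mitochondrial subunit of complex IV, read 24 and 27.3, 34.8 and 22.1, and 28.8 and 16.4 in the same order of groups. mt-Atp6, the proton channel subunit of complex V, read 51.8 and 40.9, 51.6 and 35.5, and 54.7 and 21.8. These values varied among libraries with no common order, and mt-Nd3 (64.3 and 59.1, 59.3 and 33.6, 53.2 and 61.8) and mt-Nd4l (1.92 and 9.1, 7.37 and 0.959, 5.75 and 1.82), both subunits of complex I, did the same. mt-Atp8, a small subunit of complex V, swung most between replicates: 178 and 2.27 in water, 5.36 and 90.1 under DSS, and 8.63 and 1.82 with montmorillonite added. None of the 6 passed the test (adjusted p = 0.448 to 0.999). Their log2 differences are not read one by one, but they enter every count and median given for all 13 genes. Over the other 7 genes the median was -0.52 in DSS against water. In 5 of these 7 both DSS libraries lay below both water libraries, beside 28.5% of all genes.

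Of those 6 genes, 5 have near-complete copies in the nuclear genome. Among the genes of high value, mt-Co1 has a copy along its whole length, Gm13340 on chromosome 2, with 97.6% identity over 1545 bases. In GENCODE, 7 unprocessed pseudogenes that copy mitochondrial genes lie side by side at chr1:24611535-24616197 (GRCm38, minus strand). Of the 50-base windows of mt-Co2, 100% occur letter for letter in a nuclear transcript; the share was 99.5% for mt-Atp6, 99.9% for mt-Co3, 98% for mt-Nd3 and 98.8% for mt-Nd4l. It was 62.2% for mt-Nd4, 51.1% for mt-Co1, 8.19% for mt-Nd2, 7.61% for mt-Nd5 and 0% for mt-Nd1, mt-Nd6 and mt-Cytb. For mt-Atp8 it was also 0%, but the interval between the copies of its neighbours mt-Atp6 and mt-Co2, chr1:24614652-24614884, holds no annotated gene, and the genome sequence there was not used here. The pseudogenes themselves were low: Gm28661, the copy of mt-Co2, read 25.9 and 27.3 in water, 54.9 and 15.3 under DSS, and 61.8 and 21.8 with montmorillonite added. A read from a shared stretch cannot be assigned to either place by its sequence. How such reads were counted is not given in the sources used here, so the levels of these 5 genes, and the copied parts of mt-Nd4 and mt-Co1, are uncertain, and the part of the copies in the low values was not tested.

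The stretches below show how alike the places are. The first is bases 311 to 370 of mt-Co2 (chrM:7323-7382, plus strand) with the matching part of Gm28661 (chr1:24615196-24615255, minus strand), which had 0 differences over 681 aligned bases. The other pair is bases 1063 to 1122 of mt-Co1 (chrM:6390-6449) with Gm29216 (chr1:24616129-24616188, minus strand), which differed at 1 of 483 aligned bases, A1066T counted from the start of mt-Co1. Capitals mark that base; sequences are GENCODE transcripts, 5′ to 3′.
mt-Co2: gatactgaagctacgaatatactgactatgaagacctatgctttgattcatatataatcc
Gm28661: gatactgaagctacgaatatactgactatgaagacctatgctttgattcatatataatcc
mt-Co1: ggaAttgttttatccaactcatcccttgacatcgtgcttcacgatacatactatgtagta
Gm29216: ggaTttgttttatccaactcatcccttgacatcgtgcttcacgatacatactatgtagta

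**Figure D3:**
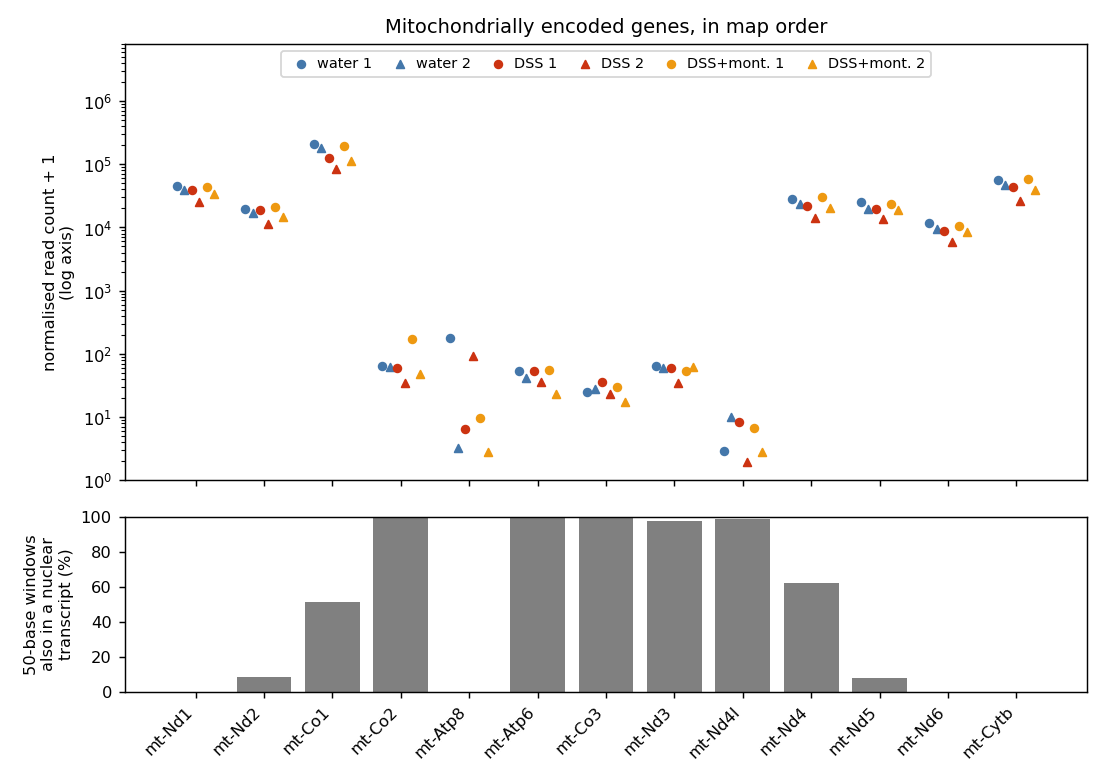
Upper panel: normalised read count plus 1 (log axis) of the 13 mitochondrially encoded genes in map order, 1 point per library. Lower panel: percent of each gene's 50-base windows that also occur in a nuclear transcript; mt-Co2, mt-Atp6, mt-Co3, mt-Nd3 and mt-Nd4l combine low values with shares of 98% to 100%, while mt-Atp8 is low with a share of 0%.

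The 2 genomes were compared over the 77 nuclear genes and the 7 mitochondrial genes with values of 5912 or more in every library, a choice made after the values were seen. The nuclear sum was 0.358 and 0.404 of the mitochondrial sum in water, 0.263 and 0.352 under DSS, and 0.344 and 0.298 with montmorillonite added. Each DSS library was below each water library, but DSS replicate 1 was far below and replicate 2 close to water (two-sided exact permutation p = 0.333, the smallest possible). The 7 genes had a median log2 difference of -0.52 between DSS and water. Within the mitochondrial set, mt-Co1 per kilobase was 2.80 and 2.85 times mt-Cytb in water, 2.08 and 2.34 times under DSS, and 2.43 and 2.12 times with montmorillonite added, with the water libraries highest (exact permutation p = 0.333 for DSS against water). The mitochondrial ribosomal RNAs, transcribed from the same chromosome and not members of the chain, lay lower in DSS as well. The 7 genes summed to 30.0 and 24.3 times these RNAs in water and 31.5 and 30.4 times under DSS. With montmorillonite added the sum was 30.7 and 44.3 times. The part of library preparation in the levels of the ribosomal RNAs was not tested. mt-Rnr2, the large one, read 8133 and 7944 in water, 5132 and 3422 under DSS, and 7045 and 3545 with montmorillonite added, with both DSS libraries below water (log2 difference -0.94, SE 0.23, adjusted p = 0.0478, limma); it was not called by edgeR, with scaling by library size only, with a pseudocount of 0.5 or with no filter on low values. The small one, mt-Rnr1, had a log2 difference of -0.83 (SE 0.22, adjusted p = 0.0589).

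Genes that build and feed the chain were counted in the same test. Of 41 assembly factors, 3 fell in DSS and 0 rose (median log2 difference -0.37), a share close to the 7.18% called lower among all genes. Among them were Cox14 and Coa3, which act on the newly made mt-Co1 protein: Cox14 read 748 and 659.5 in water, 378 and 321 under DSS, and 705 and 351 with montmorillonite added (adjusted p = 0.0233), and Coa3 read 583 and 644, 369 and 278, and 512 and 311 (adjusted p = 0.0375, not called with scaling by library size only). Both were low in DSS and in replicate 2 of DSS plus montmorillonite. Of 18 genes for mobile electron carriers and coenzyme Q synthesis, 2 fell and 0 rose (median -0.49). They were Coq8a, an atypical kinase of coenzyme Q synthesis (308 and 271 in water, 109 and 119.8 under DSS, 199.9 and 102 with montmorillonite added, adjusted p = 0.0179), and Coq9, a lipid-binding factor of the same pathway (619 and 589, 314 and 256, and 589.7 and 278, adjusted p = 0.0208). Cycs, cytochrome c itself, read 1879 and 1667 in water, 1244 and 760.3 under DSS, and 1792 and 1076 with montmorillonite added. It lay below water in DSS without passing the test (log2 difference -0.86, SE 0.26, adjusted p = 0.079).

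Of 19 genes of the citric acid cycle and pyruvate dehydrogenase, 7 fell and 0 rose (median -0.62). Citrate synthase, Cs, read 6861 and 6754 in water, 2648 and 2831 under DSS, and 7999.9 and 5089 with montmorillonite added, a fall of DSS to 0.402 times water (adjusted p = 0.00899). DSS plus montmorillonite replicate 1 was the highest of the 6 libraries for this gene, and replicate 2 stood between water and DSS. Of 20 outer membrane, import and carrier genes 6 fell and 0 rose (median -0.38), among them the channel Vdac3 (1644 and 1508 in water, 788 and 642 under DSS, 1687 and 636 with montmorillonite, adjusted p = 0.0156) and the ADP/ATP carrier Slc25a5 (in the same order 11459.6 and 11214, 5130.2 and 3550.3, 11518 and 5896, adjusted p = 0.0162). Of 77 mitochondrial ribosomal protein genes 6 fell and 0 rose (median -0.33), again a share close to 7.18%, with the smallest p for Mrpl14 (347 and 384, 159 and 150.0, 315 and 133, adjusted p = 0.0172) and Mrps35 (399 and 364, 195 and 146, 311 and 149, adjusted p = 0.0266).

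Regulators split. Of 17 nuclear regulators of mitochondrial biogenesis, 6 fell and 0 rose (median -0.42), beside 7.18% of all genes called lower and 7.9% higher. A positive log2 difference, up to 0.93, was found in 5 of the 17 without a call. The coactivator Ppargc1a read 574 and 673 in water, 139 and 50.3 under DSS, and 579.6 and 113 with montmorillonite added. It was low in DSS and in replicate 2 of DSS plus montmorillonite, with 0.136 times the water level in DSS (log2 difference -2.88, SE 0.47, adjusted p = 0.0171). Its partner receptor Esrra read 1141 and 1119 in water, 629 and 581 under DSS, and 1378 and 1003 with montmorillonite added, lowest in the DSS libraries (log2 difference -0.90, SE 0.16, adjusted p = 0.0207). The activators of subunit promoters did not pass: Nrf1 read 286 and 287 in water, 228 and 294 under DSS, and 309 and 222 with montmorillonite added, and Gabpa read 592 and 505, 569.5 and 527, and 547 and 434. Water and DSS overlapped in both (adjusted p = 0.684 and 0.995). Of 23 genes for mitochondrial DNA replication and transcription, 0 were called by limma in either direction, with 3 at an unadjusted p below 0.05 (median 0.05). Tfam, which packages mitochondrial DNA and starts its transcription, read 392 and 348 in water, 308 and 259 under DSS, and 256 and 213 with montmorillonite added. Both treated groups lay below water, and the difference of DSS from water did not pass (log2 difference -0.38, SE 0.20, adjusted p = 0.246).

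Since nuclear subunits moved together, their promoters were searched for the motifs of factors known to act on them. RefSeq windows (GRCm38.p6) from 250 bases before to 50 bases after the transcription start were at hand for 64 of the 77 genes. The NRF1 motif GCGCNTGCG was present in 35.9% of these genes and in 7.12% of all genes with a window, the ETS motif CCGGAAG bound by GABP in 25% and 9.93%, and the YY1 motif AAGATGGCG in 10.9% and 1.64%. The receptor motif TGACCTTG, bound by the Esrra product, was in 6.25% and 1.76%, and TATAAA in 7.81% and 15.7%. Both strands were searched, NRF1 matches can overlap each other because the motif is nearly its own reverse complement, and the windows of the members had a median GC content of 58.4% against 52.8% in all genes. The median log2 difference of DSS against water was -0.99 in members with an NRF1 match and -0.94 in those without, -1.03 and -0.91 for the ETS motif, -1.03 and -0.95 for TGACCTTG, -0.93 and -0.96 for the YY1 motif, and -0.70 and -0.96 for TATAAA. Matches were found in 23 members for NRF1 and 16 for ETS. The medians with a match rest on only 7 members for YY1, 4 for TGACCTTG and 5 for TATAAA. No difference between members with and without a match was tested. A match is a description of letters, not of binding.

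Stretches upstream of the start are shown for a subunit of each complex, with all motif matches in capitals, as RefSeq sequence on the gene's strand. Sdha holds 3 NRF1 matches in chr13:74350241-74350352, and Sdhd 1 NRF1 and 1 ETS match in chr9:50603874-50603942. Atp5h (chr11:115419936-115420074) holds 1 of each, Ndufa11 (chr17:56717687-56717726) 2 overlapping NRF1 matches, and Uqcr11 (chr10:80406866-80406902) and Cox6b1 (chr7:30626121-30626157) 1 ETS match each.
Ndufa11: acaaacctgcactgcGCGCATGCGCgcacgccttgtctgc
Sdha: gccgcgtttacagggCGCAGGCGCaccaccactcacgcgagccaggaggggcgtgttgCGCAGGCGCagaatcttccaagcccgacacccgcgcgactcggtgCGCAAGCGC
Sdhd: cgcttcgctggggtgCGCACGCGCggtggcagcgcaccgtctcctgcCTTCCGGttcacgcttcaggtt
Uqcr11: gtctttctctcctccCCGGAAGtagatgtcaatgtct
Cox6b1: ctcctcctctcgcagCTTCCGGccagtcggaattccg
Atp5h: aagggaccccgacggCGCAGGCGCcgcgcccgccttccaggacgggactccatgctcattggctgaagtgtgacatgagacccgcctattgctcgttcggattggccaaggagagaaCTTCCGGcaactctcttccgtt

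The third group asks whether montmorillonite given with DSS left the chain nearer to water or to DSS, and its libraries gave different answers. Against the water mean, the median log2 level of the 77 nuclear genes was -0.11 in replicate 1 and -0.91 in replicate 2, beside 0.04 and -0.04 in water and -0.81 and -1.07 in DSS. All 77 genes were lower in replicate 2 than in replicate 1. Replicate 1 lay above both DSS libraries in 75 of 77 genes, below both water libraries in 48, within the water range in 15 and above it in 14. Replicate 2 lay below both water libraries in all 77 genes, above both DSS libraries in 29 and below both in 12. These counts of a single library against a pair were not made over all genes. No background share stands beside them, and they are not read as particular to the chain. For the 7 mitochondrial genes with high values the medians were 0.09 and -0.34, beside 0.12 and -0.12 in water and -0.20 and -0.83 in DSS.

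In DSS plus montmorillonite against water, 0 of the 77 nuclear and 0 of the 13 mitochondrial genes were called by limma, edgeR or DESeq2, and the background was 0% lower and 0% higher with limma, while DESeq2 called 113 of all genes lower and 89 higher. An unadjusted p below 0.05 was reached by 1 nuclear gene with limma, 3 with edgeR and 0 with DESeq2. The median log2 difference was -0.52 for the nuclear genes, all of them negative, and -0.16 for the 13 mitochondrial genes. Over the 7 mitochondrial genes with high values the median was -0.08. Both libraries lay below both water libraries in 48 nuclear genes and above in 0 (19.2% and 21.5% of all genes tested). Without replicate 2 the nuclear median was -0.11 and 4 nuclear genes had an unadjusted p below 0.05 with limma, and without replicate 1 the median was -0.91 and 68 had one. The mitochondrial median was 0.16 without replicate 2 and -0.37 without replicate 1.

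Against DSS alone, 0 of the 77 nuclear and 0 of the 13 mitochondrial genes were called in either direction by limma, edgeR or DESeq2. Over all genes limma called 0% higher and 0% lower, whereas DESeq2 called 50 genes higher and 18 lower. An unadjusted p below 0.05 was reached by 2 nuclear genes with limma, 0 with edgeR and 3 with DESeq2, all in the direction of higher with montmorillonite. The nuclear median was 0.44, with 76 of 77 genes positive and Ndufa4 negative; both libraries lay above both DSS libraries in 29 genes and below in 1 (19.4% and 20.6% of all genes tested). Without replicate 1 the median was 0.04 and 0 nuclear genes had such a p, and without replicate 2 the median was 0.87 and 40 had one. The mitochondrial median over all 13 genes was 0.35, 0.11 without replicate 1 and 0.54 without replicate 2. Over the 7 mitochondrial genes with high values the median was 0.39 with both replicates. By complex, against the water mean, replicate 1 stood at -0.11 in complex I, -0.06 in II, -0.14 in III, -0.03 in IV and -0.15 in V, above both DSS libraries in all 5. Replicate 2 stood at -0.82, -0.95, -1.04, -0.90 and -1.07 in the same order; it lay between the DSS libraries in complexes I, II, III and V, and above both, at -1.07 and -1.29, in complex IV. This comparison shares its DSS libraries, and the one against water its water libraries, with the comparison of DSS and water, so the 3 sets of differences are not independent.

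Marker lists of epithelium and mature colonocytes were low in DSS like the nuclear subunits, while those of neutrophils, leukocytes and fibroblasts were high. The part of these cell types in the change of the respiratory chain was not tested. The 10 epithelial markers had median log2 levels of -1.18 and -1.65 under DSS, then 0.15 and -0.65 with montmorillonite, against the water mean. In DSS against water, 8 of the 10 fell and 0 rose, where the same test called 7.18% of all genes lower and 7.9% higher. The other way went 1 marker, uncalled at a log2 difference of 0.98, with both DSS libraries above both water libraries. Mature colonocyte markers stood at -1.69 and -1.61 under DSS, then 0.60 and -0.49 with montmorillonite, so both lists were low in DSS, and with montmorillonite replicate 1 was above water and replicate 2 below it. The summed nuclear subunits were 0.939 and 0.844 times the summed epithelial markers in water, 1.11 and 1.39 times under DSS, and 0.785 and 0.827 times with montmorillonite added: relative to these markers, the subunits were higher in DSS than in water (exact permutation p = 0.333, the smallest possible). Of 10 neutrophil markers 9 rose; their median log2 level against the water mean was 6.33 and 7.24 under DSS, and 0.66 and 6.66 with montmorillonite. The list summed to 3031 and 3252 in water, 6145 and 10789 under DSS, and 5221 and 13769 with montmorillonite, sums to which Ly6g, the marker that did not rise, gave most in water and in replicate 1 with montmorillonite (2989, 3193 and 5084). Of the 10 genes, 4 and 2 were at 0 in the water libraries and 0 elsewhere. Leukocyte markers summed to 1084 and 1112, 4405 and 3485, and 938 and 4124, and fibroblast markers to 11469 and 13625, 37185 and 60007, and 11952 and 36558, in the same order. Both lists were high in DSS and in DSS plus montmorillonite replicate 2, where the nuclear subunits were low.

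**Figure D4:**
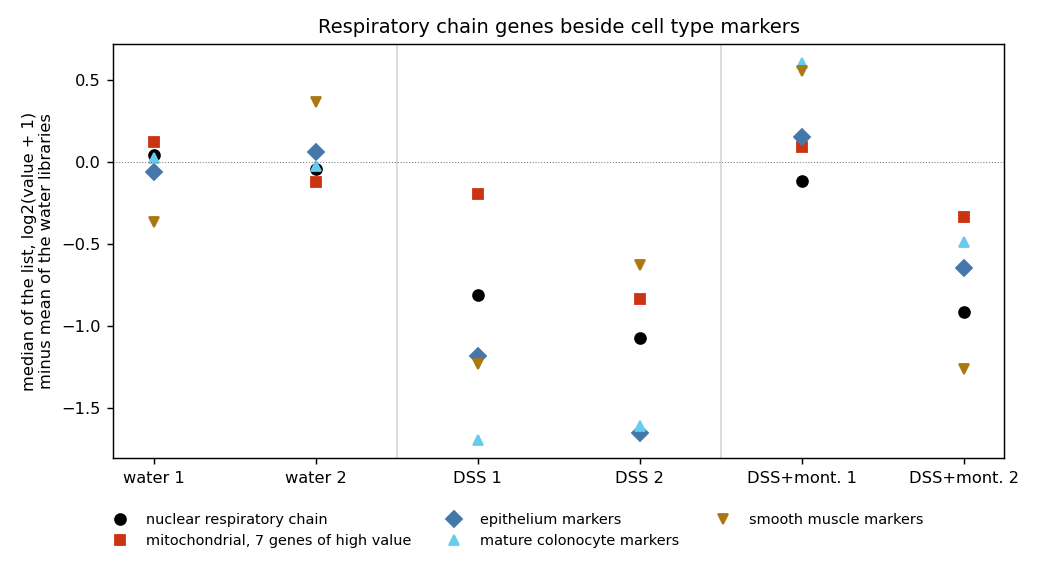
Median over each list of log2(value + 1) minus the gene's mean over the water libraries, 1 point per list and library. Nuclear subunits, epithelial markers and mature colonocyte markers are all low in the DSS libraries; in DSS plus montmorillonite replicate 1 the nuclear subunits are at -0.11 and in replicate 2 at -0.91, below the epithelial markers at -0.65.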

How the data were processed

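The deposited signal values were normalised read counts per gene, which the authors had divided by 1 factor per library: in each library every value was a whole multiple of the value of 1 read, within 0.01 read. The counting tool, strand setting and treatment of reads with several matches are not given in the sources used here. GRCm38 (mm10) is named as the build, per the submitters' processing notes. Identifiers were matched to GENCODE M21. Values per kilobase used the length of the principal transcript by the APPRIS tags there, or the longest where several ranked equally. That transcript was long for some subunits, 4371 bases for Ndufb2 and 4715 for Atp5g1, which lowers their values per kilobase. Columns of values not used numbered 0. Differences were tested with limma 3.58.1 (R 4.3.3, trend) on log2(value + 1), using the 4 libraries compared and the genes whose mean value reached 1, with Benjamini-Hochberg adjustment over all of them and a threshold of 0.05; the code was tested on simulated data. Alternatives were edgeR 4.0.16 and DESeq2 1.42.0 on recovered reads, all 6 libraries in 1 fit, other pseudocounts, filters and scaling, a replicate block, and leaving out each library. Named by rule were the mitochondrial genes, the Sdh genes, per other complex the 3 largest and 2 smallest differences among genes with a mean of at least 20, the restricted paralogs with their partners, Cox7a2l, Atpif1, genes called higher, the 2 smallest p of each pathway list, and 7 regulators and carriers. A gene that this rule names is not reported here. Members, lists and the fit of only the 4 libraries compared were chosen with earlier results of these data known. Those results included a fit of all 6 libraries that called no gene in DSS against water. Ratios were compared by two-sided exact permutation tests, and promoters are from RefSeq (GRCm38.p6).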

Additional observations from a re-analysis of the deposited data

How the results depend on the processing

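The count of nuclear subunits called lower in DSS against water (56) was 0 with all 6 libraries in 1 fit, 35 with scaling by library size only and 0 in every fit without 1 library; edgeR gave 51, DESeq2 61, and with the replicate block it was 70. With the block 2 of the 6 restricted paralogs were called higher by limma, Cox6b2 and Ndufa4l2. The replicate numbers are shared between groups, but with only 2 numbers and no label of a shared litter or day they do not pair the libraries (correlations of same-numbered deviations 0.16 to 0.41). All genes called lower and higher were 1459 and 1605, and 984 and 2401 with scaling by library size only. The nuclear median was -0.725 with that scaling and -1.07 to -0.81 without 1 library (lowest without DSS replicate 1, highest without DSS replicate 2). For the mitochondrial genes DESeq2 called 1, and the median without 1 library ran from -0.83 to -0.14. Without 1 library, the nuclear median of DSS plus montmorillonite ran from -0.91 to -0.11 against water and from 0.0375 to 0.87 against DSS, and the mitochondrial median against water from -0.37 to 0.16. Directions of DSS against water reversed as follows, and apart from the effect of leaving out a library the cause was not tested: with scaling by library size only, Nrf1 to 0.0907 and mt-Atp6 to 0.11; with a pseudocount of 0.5, mt-Atp8 to 0.0522. Without 1 library the log2 difference ran from -1.07 to 0.35 for Cox4i2, -0.17 to 2.95 for Cox8b, -0.11 to 0.12 for Gabpa, -0.33 to 0.0398 for Nrf1, -0.37 to 0.16 for mt-Atp6, -2.89 to 2.88 for mt-Atp8, -0.21 to 0.43 for mt-Co3, -0.69 to 0.0294 for mt-Nd2 and -1.47 to 0.62 for mt-Nd4l. With 2 libraries a group, no ratio test can reach 0.05, and the water library of 3741494 reads limits genes near 1 read.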

Other observations

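AA467197, also called Nmes1, encodes a paralog of the Ndufa4 protein and was looked at after the values were seen. It read 4461 and 4128 in water, 1703 and 1334 under DSS, and 4306 and 3770.1 with montmorillonite added. Its DSS libraries were far below the other 4, with a log2 difference from water of -1.51 (SE 0.18, adjusted p = 0.00921, limma), whereas Ndufa4 was not called. Per kilobase, AA467197 stood at 4.39 and 4.75 times Ndufa4 in water, 1.67 and 0.960 times under DSS, and 4.61 and 5.01 times with montmorillonite, where both libraries were close to water.

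Usmg5, a small subunit of ATP synthase whose symbol in this annotation lies outside the naming rule, was also chosen after its values were seen. It read 1149 and 996 in water, 546 and 399 under DSS, and 933 and 432 with montmorillonite added. Like the complex V subunits, it was low in both DSS libraries and in replicate 2 with montmorillonite (log2 difference of DSS from water -1.20, SE 0.21, adjusted p = 0.0213).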
